A study of Mus musculus with 24 samples.

Results

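Wnt signals reach a cell through a small set of gene families, and their RNA levels are described here in C2C12 cells, a mouse myoblast line that can fuse into myotubes. The members are the Wnt ligands, the Frizzled receptors and 2 families of secreted inhibitors, the Sfrp proteins with Frzb and the Dkk proteins. They were found by gene symbol in the probe annotation of both array designs, MA and MB, which gave 39 of the 18193 genes that a probe set named alone. There were 19 Wnt genes, 10 Frizzled genes, 5 Sfrp and Frzb genes, 4 Dkk genes and Fzd10os, an opposite-strand transcript whose name the same pattern matches. Each gene was represented by its probe set with the highest mean, with MA preferred, called the preferred probe set below.

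Total RNA came from 12 samples, each hybridised to both designs. The cells were kept in GM or DM with 5 or 25 mM glucose, and each of the 4 groups had 3 samples, called cultures here. The labels give only the abbreviations, which commonly stand for growth and differentiation medium in this line, and they state neither times nor other medium components. The stated question is whether less nutrient supply changes muscle differentiation, and glucose is the only nutrient that the labels name.

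Wnt proteins are secreted, lipid-bearing ligands that bind Frizzled receptors on the cell surface. With the co-receptors Lrp5 and Lrp6 this stops the destruction of beta-catenin, which then acts in the nucleus with Tcf and Lef factors, while other Wnt and Frizzled pairs act on cell polarity and calcium. Sfrp proteins and Frzb bind Wnt ligands outside the cell, and Dkk proteins typically block the co-receptors. In muscle the pathway is known for roles in the patterning of muscle precursors in the embryo and in the balance between growth and differentiation of muscle stem cells.

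Values are deposited probe set intensities on a linear scale, and changes are differences of log2(intensity + 20), which understate the change of dim probe sets. A change was called at an adjusted p under 0.05 by limma with Benjamini-Hochberg adjustment over all tested probe sets of a design. Probe sets with a mean at or below the 40th percentile, an intensity of 35.5 on MA and 63.7 on MB, were not tested. Where a tested probe set had a group mean below that intensity, its low level is not well measured, and the size of its change depends on the 20 added before the log. The labels do not say whether the 3 cultures of a group were grown separately, so a p-value reflects no more than the spread among these samples. In bulk RNA, fewer cells that hold a transcript and less of it per cell cannot be told apart.

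The arrays of a design had been scaled to a common level, with trimmed means of 150.05 to 150.07 on MA and 150.02 to 150.03 on MB. Myog, the myogenin gene, read 14.8 ± 9.20 (SD, n = 3) in GM and 6129 ± 1682 (SD, n = 3) in DM at 25 mM. Acta1, skeletal alpha actin, rose by 8.11 and 7.75 on the log2 scale at 25 and 5 mM. The Acta1 GM means of 23.3 and 16.6 lie below the filter intensity, so these sizes depend on the 20 added before the log. Myod1 was present in all groups, with means of 1094 to 1378. Among markers of other cell types, 1 of 4 adipocyte, 1 of 3 osteoblast, 0 of 4 blood and endothelium and 2 of 5 neural genes passed the filter, and none had an intensity of 0. The summed adipocyte markers ran from 316 to 414 in GM and from 63.4 to 135 in DM, most of it from Cebpa, and the summed neural markers from 853 to 1330 in GM and from 1680 to 3290 in DM, most of it from Nes, which muscle cells also express. The osteoblast sums were 93.1 to 297 in GM and 82.5 to 237 in DM, and the blood and endothelium sums 48.2 to 122 and 48.2 to 89.8. The part of these shifts in the results below was not tested. The 18S ribosomal control was low in 4 cultures, at 11.5 to 19.8 on MA against 159 to 908 in the other 8. These were GM at 5 mM replicates 1 and 2, DM at 25 mM replicate 3 and DM at 5 mM replicate 2, so only 1 culture of GM at 5 mM had a high control. Results are given below with this class, low or high, as a block or in the high cultures alone where that changed them.

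Between GM and DM, the receptor gene Fzd2 rose and the inhibitor genes Sfrp1 and Sfrp2 fell at both glucose levels. Wnt9a, a ligand gene, showed the largest rise among the called members, 7.93-fold at 25 mM and 4.65-fold at 5 mM, on MB only. By the preferred probe sets, 15 of the 39 genes were bright enough to test. At 25 mM 6 of the 15 were called, 3 higher and 3 lower, where 29.4% of the 12135 genes tested were called, 12.7% higher and 16.7% lower. At 5 mM 5 of the 15 were called, 1 higher and 4 lower, where 24.2% of all genes tested were called, 9.95% higher and 14.2% lower. The 3 called lower at 25 mM, Sfrp1, Sfrp2 and Dkk3, had DM means at or below the filter intensity. So had Sfrp1, Sfrp2 and Fzd1 among the 4 called lower at 5 mM. The members' median change was -0.22 at 25 mM and -0.04 at 5 mM, against -0.11 and -0.04 over all genes tested. With 15 genes tested these shares lie near the background, so the counts are not read as a result about the members as a whole.

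The preference for MA hid some members whose MB probe sets lay at a higher percentile of their own design. Taking instead the probe set at the higher percentile of either design, 22 of the 39 genes were tested, and 26 of the 39 kept the same probe set. With this choice 7 of the 22 were called at 25 mM, 4 higher and 3 lower, where 26.4% of the 12851 genes tested were called, 11.9% higher and 14.5% lower. At 5 mM 8 of the 22 were called, 4 higher and 4 lower, where 21.8% were called, 9.18% higher and 12.6% lower. Values from this choice are named as MB values below.

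**Figure D1:**
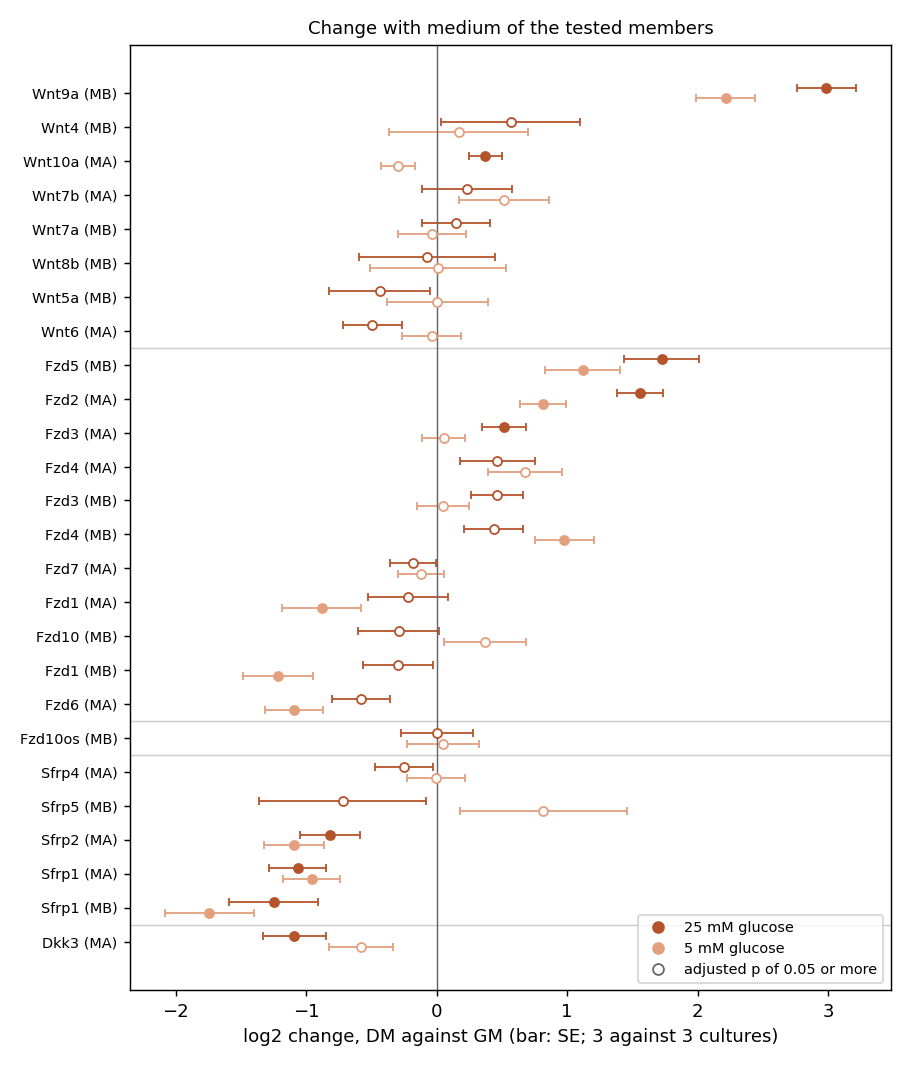
Log2 change from GM to DM with its standard error for each tested member at 25 mM and at 5 mM glucose, on the log2(intensity + 20) scale. Wnt9a on MB lies farthest to the right, at 2.99 and 2.22, and Sfrp1 and Sfrp2 lie to the left of 0 at both glucose levels.

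Promoter sequences were used for 26 of the 39 members, as RefSeq windows of 300 bases on GRCm38.p6 that reach 250 bases before the start of the gene and 50 after it. The 250 bases before the start are printed for 3 genes: Wnt9a and Fzd5, the ligand and the receptor with windows that rose at both glucose levels, and Sfrp2, the inhibitor with a window that fell at both. Capitals mark CANNTG, the E-box that factors of the MyoD family can bind, which reads the same on both strands. The Wnt9a stretch is chr11:59306680-59306929 on the plus strand, the Fzd5 stretch chr1:64737751-64738000 on the minus strand and the Sfrp2 stretch chr3:83766071-83766320 on the plus strand, each written 5′ to 3′ in the direction of the gene.
Wnt9a: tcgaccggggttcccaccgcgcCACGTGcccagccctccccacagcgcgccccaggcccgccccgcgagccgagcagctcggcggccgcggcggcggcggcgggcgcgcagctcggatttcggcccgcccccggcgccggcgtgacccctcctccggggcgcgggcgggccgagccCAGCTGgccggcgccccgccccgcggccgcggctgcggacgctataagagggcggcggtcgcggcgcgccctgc
Fzd5: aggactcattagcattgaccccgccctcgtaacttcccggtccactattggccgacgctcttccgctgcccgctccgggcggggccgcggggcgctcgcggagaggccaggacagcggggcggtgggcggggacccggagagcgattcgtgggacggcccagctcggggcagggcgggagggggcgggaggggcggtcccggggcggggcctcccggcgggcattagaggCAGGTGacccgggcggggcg
Sfrp2: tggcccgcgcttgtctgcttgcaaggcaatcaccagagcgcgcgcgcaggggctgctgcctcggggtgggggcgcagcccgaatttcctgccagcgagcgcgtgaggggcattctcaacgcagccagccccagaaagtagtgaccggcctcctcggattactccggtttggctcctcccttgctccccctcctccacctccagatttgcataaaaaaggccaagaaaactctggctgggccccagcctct
The Wnt9a window held 2 such motifs, the Fzd5 window 1 and the Sfrp2 window 0. CANNTG was found in 72.3% of the 32851 windows of this length and in 20 of the 29 windows of the members. The form CAGCTG, which is 1 of the CANNTG words, lay 74 bases before the Wnt9a start and was found in 16.3% of all windows and in 3 of the members' windows, those of Frzb, Fzd10 and Wnt9a. CTTTGAT, a word bound by Tcf and Lef factors, was searched on both strands and was found in 3.7% of all windows and in 2 of the members' windows, those of Wnt11 and Wnt5b. G and C made up 83.3% of the Wnt9a window, 75.7% of the Fzd5 window and 66.0% of the Sfrp2 window. A match describes the letters of the window and not a bound site.

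Of the 19 Wnt ligand genes, 3 were tested by their preferred probe sets (Wnt6, Wnt7b and Wnt10a) and 8 by the probe set at the higher percentile. Wnt10a, a ligand known from tooth, hair and skin development, was the only called ligand on MA. It read 243, 225 and 191 in GM and 297, 295 and 276 in DM at 25 mM, while GM read 258, 238 and 265 and DM read 215, 217 and 178 at 5 mM. The DM cultures lay above all GM cultures at 25 mM and below all GM cultures at 5 mM. The rise at 25 mM was 0.37 (log2, SE 0.13, limma adjusted p = 0.035), and the change of -0.30 at 5 mM was not called (adjusted p = 0.102). The call at 25 mM was held in 14 of 22 alternatives. It was lost without GM replicate 3 (0.28, adjusted p = 0.135), GM replicate 2 (adjusted p = 0.0595) or DM replicate 1, 2 or 3 (adjusted p = 0.0888, 0.0865 and 0.051), while median centring of the arrays raised the change to 0.57 (adjusted p = 0.00333). In the cultures with a high 18S control its adjusted p was 0.0623.

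Wnt9a, a ligand best known from joint formation, showed its change on MB. Its MB probe set read 204, 150.5 and 289 in GM and 1893, 1601 and 1877 in DM at 25 mM. At 5 mM it read 233, 180.5 and 204 in GM and 941, 1191 and 961 in DM. Every DM culture lay far above every GM culture, and the DM cultures at 5 mM lay below those at 25 mM. The log2 change was 2.99 (SE 0.23, limma adjusted p = 2.66e-08) at 25 mM and 2.22 (SE 0.23, limma adjusted p = 1.78e-06) at 5 mM. In the cultures with a high 18S control the changes were 2.95 (adjusted p = 3.93e-06) and 2.11 (adjusted p = 0.00267), close to those over all cultures. The MA probe set of Wnt9a was below the filter. It read 5.96, 25.4 and 6.19 in GM and 8.53, 44.8 and 44.3 in DM at 25 mM, with overlap, while GM read 8.87, 12.7 and 8.05 and DM read 33.6, 30.4 and 26.9 at 5 mM, without overlap.

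Wnt7b, a ligand of lung and kidney development, and Wnt6, a ligand of the embryonic ectoderm, were tested and not called. For Wnt7b the cultures read 135, 35.4 and 141 in GM and 167, 72.7 and 109 in DM at 25 mM. At 5 mM they read 89.4, 103 and 97.1 in GM and 175, 133 and 134 in DM. The groups overlapped at 25 mM and did not at 5 mM, where the change of 0.52 (SE 0.34) had a limma adjusted p of 0.304. Wnt6 had changes of -0.50 and -0.04, and the first was called without GM replicate 1 (-0.67, adjusted p = 0.047). On MB, Wnt7a, a ligand that acts on muscle stem cells through Fzd7, averaged 349 ± 67.6 in GM and 388 ± 64.5 in DM at 25 mM, and 283 ± 48.8 and 278 ± 62.1 at 5 mM (SD, n = 3). Wnt5a, a ligand of the polarity branch, averaged 187 ± 49.5 and 131 ± 27.2 at 25 mM, and 152 ± 41.5 and 162 ± 74.5 at 5 mM (SD, n = 3). Neither was called in any comparison, nor were Wnt4 and Wnt8b on MB. The remaining 11 ligands had no tested probe set by either choice.

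**Figure D2:**
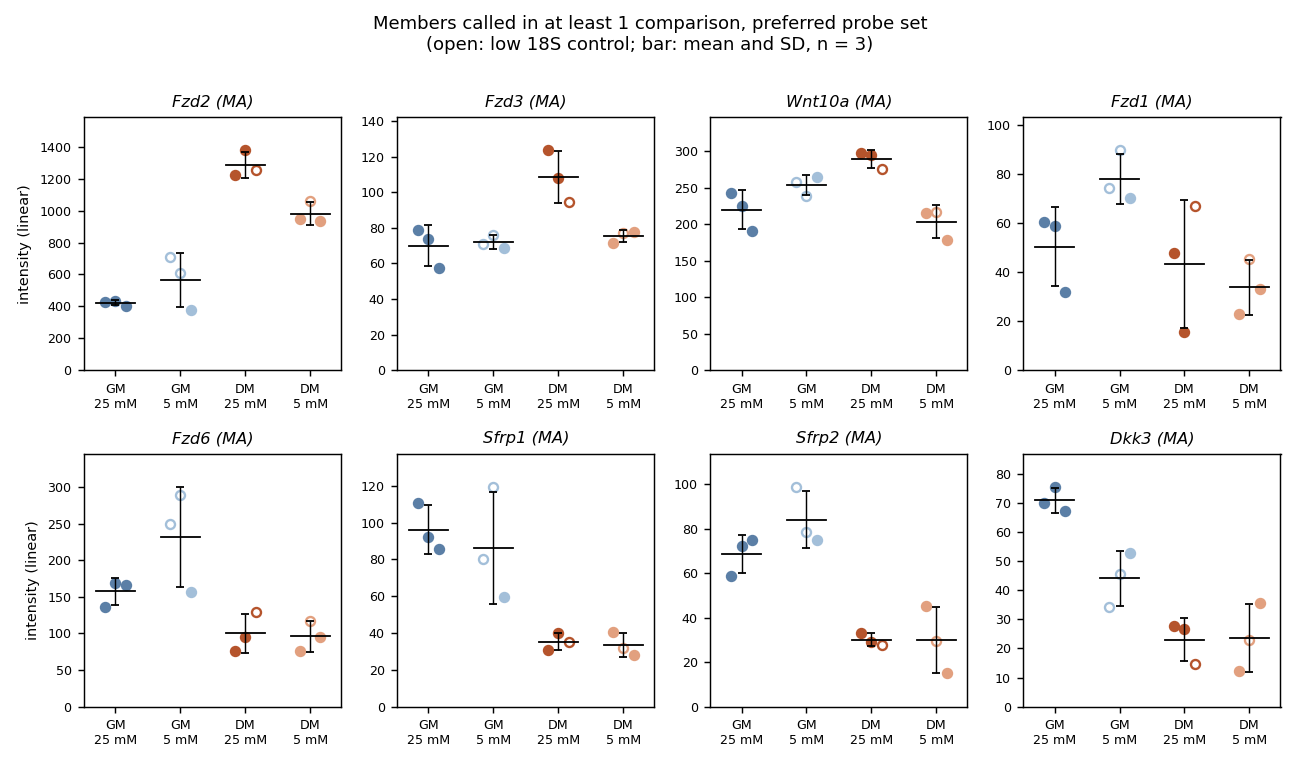
Linear intensity of each culture for the 8 members called by their preferred probe set, with a bar for the group mean and its SD (n = 3). Open points mark the 4 cultures with a low 18S control. Fzd2 is higher in every DM culture than in every GM culture, and Sfrp1 and Sfrp2 are lower.

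Among the 10 Frizzled receptor genes 7 were tested by the preferred probe sets. At 25 mM 2 were called, both higher, and at 5 mM 3 were called, 1 higher and 2 lower. Over all genes tested 12.7% were called higher and 16.7% lower at 25 mM, and 9.95% and 14.2% at 5 mM. With 7 genes tested, nothing is read from these counts about the receptors as a family. Fzd2, a receptor for ligands of the beta-catenin and polarity branches, rose at both glucose levels. It read 429.5, 435 and 404 in GM and 1223, 1378 and 1252 in DM at 25 mM. The 5 mM cultures read 709.8, 610.5 and 377 in GM and 946, 1062 and 935 in DM. The DM cultures lay above the GM cultures at both levels, and in GM at 5 mM replicate 3 lay well below the others. The log2 change was 1.56 (SE 0.18, limma adjusted p = 8.27e-06) at 25 mM and 0.82 (SE 0.18, limma adjusted p = 0.00264) at 5 mM. Both calls were held in every alternative run. In the cultures with a high 18S control the change at 5 mM was 1.27 (adjusted p = 9.73e-05), with replicate 3 as the only GM culture left. The other MA probe sets for Fzd2 were called at both levels as well, at 1.18 and 0.68 for one and 0.94 and 0.86 for the other.

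Fzd5, a receptor known from eye and gut development, was below the filter on MA and rose on MB. Its MB probe set read 89.9, 104 and 197 in GM and 390.0, 503 and 474 in DM at 25 mM. The readings at 5 mM were 204, 228 and 186 in GM and 500.0, 568 and 363 in DM. All DM cultures lay above all GM cultures. The change was 1.72 (SE 0.29, limma adjusted p = 0.000548) at 25 mM and 1.12 (SE 0.29, limma adjusted p = 0.0224) at 5 mM. The call at 25 mM was held in every alternative that tested it. The call at 5 mM was lost without GM replicate 1, 2 or 3 (adjusted p = 0.0778, 0.0517 and 0.0637), without DM replicate 1 or 2 (adjusted p = 0.0841 and 0.0916) and in the cultures with a high 18S control (adjusted p = 0.362).

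Fzd4, the receptor for Norrin in retinal vessels, was called on MB at 5 mM only. It read 428, 333 and 541 in GM and 619, 617 and 521 in DM at 25 mM, while GM read 374, 384 and 381 and DM read 733, 614 and 1002 at 5 mM. The groups overlapped at 25 mM and were apart at 5 mM, with DM higher and DM replicate 3 the highest. The change was 0.98 (SE 0.23, limma adjusted p = 0.0107) at 5 mM and 0.44 (adjusted p = 0.324) at 25 mM, and the difference between them was not called (interaction adjusted p = 0.832). Without DM replicate 3 the change at 5 mM was 0.79 (adjusted p = 0.076), and in the cultures with a high 18S control its adjusted p was 0.106. The preferred MA probe set of Fzd4 had changes of 0.46 and 0.68 that were not called, although the change at 5 mM was called without GM at 25 mM replicate 1 (0.68, adjusted p = 0.0145).

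Fzd3, a receptor of the polarity branch known from axon guidance, was called at 25 mM only. It read 78.9, 74.0 and 57.2 in GM and 124, 108 and 94.7 in DM at 25 mM, while GM read 71.1, 76.2 and 68.7 and DM read 71.7, 77.0 and 77.5 at 5 mM. The groups were apart at 25 mM and overlapped at 5 mM. The change was 0.52 (SE 0.17, limma adjusted p = 0.0262) at 25 mM and 0.05 at 5 mM, and their difference was not called (interaction adjusted p = 0.451). The call was lost without GM replicate 3 (0.41, adjusted p = 0.099), DM replicate 1 (adjusted p = 0.0987) or DM replicate 2 (adjusted p = 0.0605). No other tested Fzd3 probe set was called, and the MB probe set changed by 0.46 (adjusted p = 0.221).

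Fzd6, a receptor that orients hair follicles through the polarity branch, fell at 5 mM. The cultures read 249.8, 289 and 156 in GM and 76.1, 117 and 94.7 in DM at 5 mM, while GM read 137, 169 and 166 and DM read 76.1, 95.1 and 129 at 25 mM. DM was below GM without overlap at both levels. The log2 change at 5 mM was -1.09 (SE 0.22, limma adjusted p = 0.0018), and at 25 mM it was -0.58 (SE 0.22, adjusted p = 0.0566), just short of a call. With the 18S class as a block the change at 25 mM was -0.76 (adjusted p = 0.000795), and it was also called without DM replicate 3 (-0.75, adjusted p = 0.0256), GM at 5 mM replicate 3 (adjusted p = 0.0293) or DM at 5 mM replicate 2 (adjusted p = 0.0482). In the cultures with a high 18S control the change was -0.75 at both levels, called at 25 mM (adjusted p = 0.00857) and not at 5 mM (adjusted p = 0.0581). Another MA probe set of Fzd6 had changes of -0.20 and -0.53 that were not called (adjusted p = 0.487 and 0.0705). The groups of a tested MB probe set of Fzd6 overlapped at both levels. It averaged 178 ± 119 in GM and 134 ± 78.6 in DM at 25 mM, and 156 ± 34.5 and 144 ± 59.8 at 5 mM (SD, n = 3).

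Fzd1, a receptor of the beta-catenin branch, fell at 5 mM on both designs. On MB it read 1881, 2348 and 1367 in GM and 624, 1090.0 and 676 in DM at 5 mM. At 25 mM it read 1234, 714 and 1445 in GM and 753, 799 and 1130.0 in DM. The groups were apart at 5 mM and overlapped at 25 mM. The MB change was -1.22 (SE 0.27, limma adjusted p = 0.00821) at 5 mM and -0.30 (adjusted p = 0.639) at 25 mM, with an interaction that was not called (adjusted p = 0.744). The MA change at 5 mM was -0.88 (SE 0.31, limma adjusted p = 0.0429), with 74.4, 89.5 and 70.2 in GM and 23.0, 45.4 and 32.9 in DM, a DM mean of 33.8 that lies below the filter intensity. This MA call was held in 7 of 21 alternatives and was lost without GM at 5 mM replicate 1, 2 or 3 (adjusted p = 0.0927, 0.133 and 0.0643), DM at 5 mM replicate 1 or 3 (0.15 and 0.0919), GM at 25 mM replicate 1 (0.0505) or DM at 25 mM replicate 1 (0.0515). The MB call was lost without GM replicate 2 (adjusted p = 0.0584) or DM replicate 1 (adjusted p = 0.0546), and in the cultures with a high 18S control the MB change was -1.05 (adjusted p = 0.159).

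Fzd9, a receptor studied in bone and at the neuromuscular junction, was below the filter, and it is described because its values were seen to separate the media. It read 7.31, 10.2 and 4.12 in GM and 39.97, 41.5 and 52.4 in DM at 25 mM. At 5 mM it read 2.80, 1.95 and 4.19 in GM and 71.7, 66.1 and 54.3 in DM. No DM culture overlapped with a GM culture. Since Fzd9 was chosen for this difference and its GM level is far below the filter, no size or test of the change is given. Wnt2, also below the filter and named after its values were seen, is given in the same way. Its cultures read 16.7, 25.2 and 54.8 in GM and 5.29, 5.87 and 9.72 in DM at 5 mM. At 25 mM they read 26.2, 31.6 and 23.05 in GM and 12.3, 11.1 and 3.41 in DM. The DM cultures of Wnt2 lay below the GM cultures at both levels.

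Fzd7, the muscle stem cell receptor for Wnt7a, and Fzd10 were not called in any comparison. Fzd7 read 149, 136 and 176 in GM and 115, 124 and 161 in DM at 25 mM, while GM read 140.0, 136 and 127 and DM read 147, 133 and 92.6 at 5 mM. Its groups overlapped at both levels, with changes of -0.18 and -0.12 (SE 0.18). Fzd10 on MB read 376, 398 and 729.8 in GM and 552, 388 and 269 in DM at 25 mM, and 336, 302 and 362 against 686, 364 and 327 at 5 mM, again with overlap. Fzd10os, beside it, read 226 to 282 in GM and 219 to 269 in DM at 25 mM, and 184 to 345 and 222 to 271 at 5 mM. The changes of Fzd10os were 0.00 and 0.05. Another tested MB probe set of Fzd10os did not follow this one (Pearson r -0.033 over the 12 cultures). It averaged 89.35 ± 56.7 in GM and 92.8 ± 49.3 in DM at 25 mM, and 159 ± 32.75 and 138 ± 97.1 at 5 mM (SD, n = 3). Whether the arrays tell the 2 strands apart at this locus is not given in the sources used here. Fzd8 was below the filter on both designs.

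**Figure D3:**
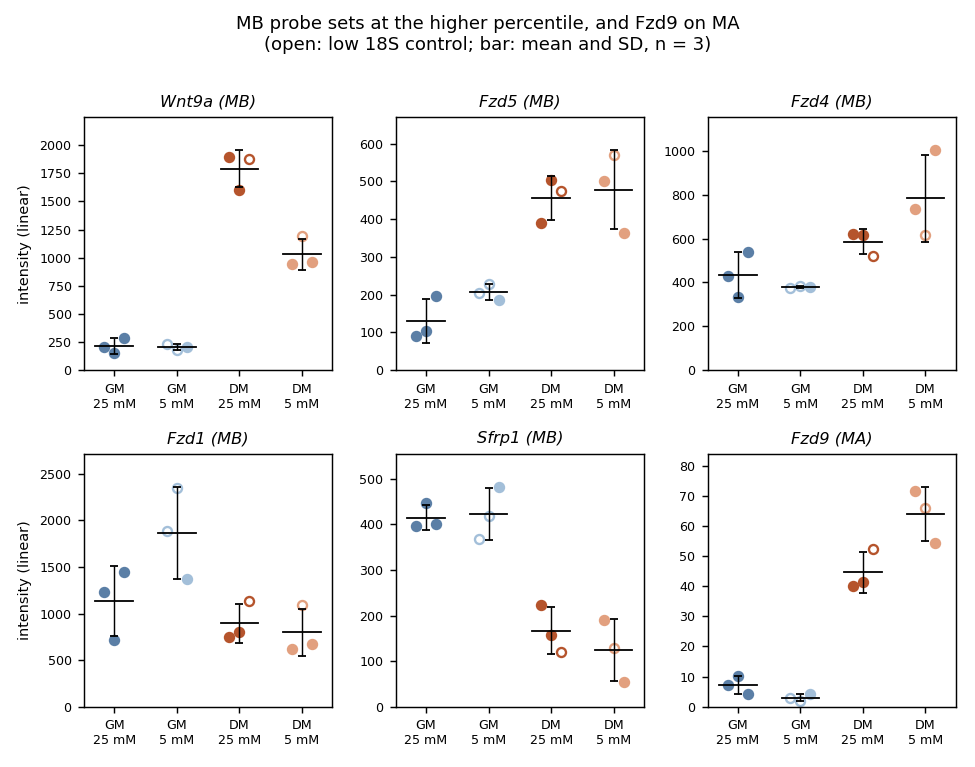
Linear intensity of each culture for the 5 members whose MB probe set lay at a higher percentile than the preferred one and was called, and for Fzd9 on MA, which was below the filter. Bars are group means with SD (n = 3), and open points mark the 4 cultures with a low 18S control. Wnt9a, Fzd5 and Fzd9 are higher in DM than in GM in every culture, Sfrp1 is lower in every DM culture, and Fzd1 and Fzd4 separate the media at 5 mM only.

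Of the 5 Sfrp and Frzb inhibitor genes 3 were tested by the preferred probe sets, and 2 of these, Sfrp1 and Sfrp2, fell at both glucose levels. Over all genes tested 16.7% were called lower at 25 mM and 14.2% at 5 mM. Both genes passed the filter through their GM levels, which favours the call of a fall. The count is therefore not read as a result about the inhibitors. Sfrp1, a secreted protein that binds Wnt ligands, read 111, 92.0 and 85.6 in GM and 30.7, 40.1 and 35.3 in DM at 25 mM. At 5 mM it read 80.2, 119 and 59.6 in GM and 40.6, 31.7 and 28.4 in DM. Every DM culture lay below every GM culture. The change was -1.07 (SE 0.22, limma adjusted p = 0.00165) at 25 mM and -0.96 (SE 0.22, limma adjusted p = 0.00408) at 5 mM. The DM means of 35.4 and 33.5 lie at or below the filter intensity of 35.5, so the probe set passed through its GM levels, and a pseudocount of 64 gave -0.69 and -0.61. In the cultures with a high 18S control the change at 5 mM was -0.56 (adjusted p = 0.303), with GM replicate 3 as the only GM culture, the lowest of its group.

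On MB, Sfrp1 read 396, 446 and 400.5 in GM and 224, 157 and 121 in DM at 25 mM, while GM read 367, 419 and 482 and DM read 189.5, 128 and 53.5 at 5 mM. The groups were apart at both levels, as for the preferred MA probe set. Another tested MA probe set of Sfrp1 followed the preferred one less closely (Pearson r 0.499 over the 12 cultures). Its groups were apart at 25 mM and overlapped at 5 mM, with 38.6, 53.4 and 87.8 in GM and 87.6, 30.1 and 14.8 in DM. The MB changes were -1.25 (SE 0.34, limma adjusted p = 0.0291) and -1.74 (SE 0.34, limma adjusted p = 0.00264). The MB call at 25 mM was lost without GM replicate 1, 2 or 3 (adjusted p = 0.0757, 0.0974 and 0.0764) or DM replicate 2 or 3 (adjusted p = 0.0842 and 0.119). In the cultures with a high 18S control the adjusted p was 0.177 at 25 mM and 0.0741 at 5 mM.

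Sfrp2, a secreted Wnt-binding protein made by muscle precursors and fibroblasts, read 58.8, 72.2 and 75.0 in GM and 33.3, 29.3 and 27.9 in DM at 25 mM. In 5 mM glucose the readings were 98.8, 78.8 and 74.8 in GM and 45.3, 29.6 and 15.2 in DM. The DM cultures lay below the GM cultures at both levels. The change was -0.82 (SE 0.23, limma adjusted p = 0.0125) at 25 mM and -1.10 (SE 0.23, limma adjusted p = 0.00217) at 5 mM. Both calls were lost in the cultures with a high 18S control, where the changes were -0.79 (adjusted p = 0.0672) and -0.98 (adjusted p = 0.129). The DM means of 30.2 and 30.0 lie below the filter intensity of 35.5, so Sfrp2 passed through its GM levels. Its DM level is not well measured, and the size of the change ran from -1.16 to -0.49 at 25 mM and from -1.57 to -0.66 at 5 mM over the alternatives.

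Sfrp4, a family member known from bone, was not called. Its cultures read 141, 98.4 and 148 in GM and 104, 134 and 79.0 in DM at 25 mM, while GM read 95.4, 122 and 151 and DM read 141, 91.0 and 135 at 5 mM. The groups overlapped at both levels. Sfrp5 was tested on MB and not called, and Frzb was below the filter.

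Dkk3, a diverged member of the Dickkopf family, was the only tested gene of the 4 in that family. It read 69.9, 75.4 and 67.2 in GM and 27.9, 26.8 and 14.5 in DM at 25 mM. In 5 mM glucose the cultures read 34.1, 45.5 and 52.7 in GM and 12.3, 22.9 and 35.6 in DM. The groups were apart at 25 mM and overlapped at 5 mM. The fall at 25 mM was -1.09 (SE 0.24, limma adjusted p = 0.00283) and was called in every alternative that tested it. The DM means of 23.1 and 23.6 lie below the filter intensity of 35.5, and Dkk3 passed through its GM levels, so the size of its change, -1.63 to -0.63 over the alternatives, is not well measured. At 5 mM the change of -0.58 (SE 0.24) had an adjusted p of 0.0901, and it was called without DM replicate 3 (-0.77, adjusted p = 0.0382) or with the 18S class as a block (-0.66, adjusted p = 0.0473). The Lrp-binding family members Dkk1, Dkk2 and Dkk4 were below the filter.

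By the preferred probe sets, 24 genes were below the filter, with means of 1.42 to 34.7. They were 16 Wnt genes, Fzd5, Fzd8, Fzd9, Sfrp5, Frzb, Dkk1, Dkk2 and Dkk4. An intensity this low cannot be told from a transcript that was not measured, so apart from Wnt9a, Wnt2 and Fzd9 above no level by culture is given from these probe sets.

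Between 5 and 25 mM glucose no member was called by limma in either medium. In GM 0 of 15 members were called, where 0.00824% of all genes tested were called. An unadjusted p under 0.05 was found for 1 member, Wnt6, and for 1157 of all 12135 genes tested. In DM 0 of 15 were called, where 1.43% of all genes tested were called. Here 3 members, Wnt10a, Fzd2 and Fzd3, had an unadjusted p under 0.05, beside 1191 of all 12135 genes. The interaction, which sets the change with glucose in DM against that in GM, was called for 0 of 15, where 0.494% were called. For it 2 members, Wnt10a and Fzd2, had an unadjusted p under 0.05, beside 1349 of all 12135 genes. With the probe set at the higher percentile the count was 0 of 22 in each of these 3 comparisons. Over all genes tested 0.00778%, 1.23% and 0.412% were called. At an unadjusted p under 0.05 there were 3, 3 and 4 members, beside 1219, 1227 and 1372 of all 12851 genes tested.

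Wnt10a had the lowest adjusted p of the tested members for glucose in DM. Its DM mean was 289 ± 11.7 (SD, n = 3) at 25 mM and 203 ± 22.3 (SD, n = 3) at 5 mM, and the cultures did not overlap. The change was -0.47 (SE 0.13, limma adjusted p = 0.0996), with adjusted p from 0.0385, with the 18S class as a block, to 0.356 over the alternatives. In GM the Wnt10a change was 0.20 (adjusted p = 0.542), and the interaction was -0.67 (SE 0.18, limma adjusted p = 0.157). Fzd3 had a change of -0.43 (SE 0.17, limma adjusted p = 0.338) in DM. Wnt9a on MB averaged 1790.0 ± 164 (SD, n = 3) in DM at 25 mM and 1031 ± 139 (SD, n = 3) at 5 mM, a change of -0.79 (SE 0.23, limma adjusted p = 0.412). Its interaction was -0.77 (SE 0.32, limma adjusted p = 0.744).

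Fzd2 had a smaller rise at 5 mM than at 25 mM, and the interaction of -0.74 (SE 0.25, limma adjusted p = 0.273) was not called. The Fzd2 change with glucose was -0.38 in DM and 0.36 in GM, and both enter this value. In GM at 5 mM, replicates 1 and 2, with a low 18S control, read 709.8 and 610.5 and replicate 3 read 377. Without replicate 3 the interaction was -0.999 (adjusted p = 0.0162), and in the cultures with a high 18S control it was -0.30 (adjusted p = 0.794). The part of the 18S control in this difference was not tested further. The medium comparisons and the glucose comparisons share cultures, so their values are not separate evidence.

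The rest of the pathway was described with a list of 111 genes grouped by role, of which 107 were on the arrays and 78 were tested. At 25 mM 30 of the 78 were called, 6 higher and 24 lower, and at 5 mM 27, 5 higher and 22 lower. Over all genes tested 29.4% were called at 25 mM, 12.7% higher and 16.7% lower, and 24.2% at 5 mM, 9.95% higher and 14.2% lower. The median change was -0.23 at 25 mM and -0.20 at 5 mM, beside the -0.11 and -0.04 of all genes given above. The 4 tested genes of ligand supply were all called at 25 mM. Porcn, the enzyme that attaches the lipid a Wnt ligand needs, rose by 1.90 (SE 0.13, limma adjusted p = 6.45e-08) and 1.68 (SE 0.13, limma adjusted p = 2.4e-07), from 119 ± 18.6 in GM to 494 ± 16.8 in DM at 25 mM and from 101 ± 2.68 to 367 ± 38.2 at 5 mM (SD, n = 3). Wls, which carries Wnt ligands to the cell surface and is named after its values were seen, went the other way, from 866.5 ± 44.2 to 493 ± 46.1 at 25 mM and from 978 ± 134 to 426 ± 54.0 at 5 mM (SD, n = 3), with changes of -0.79 and -1.16 (SE 0.13, limma adjusted p = 0.000309 and 1.05e-05). Cthrc1, a secreted protein that favours the polarity branch, fell by 1.63 and 2.06 on MB. The fall of Cthrc1 at 25 mM was lost without DM replicate 1 (-1.37, adjusted p = 0.0522), and in the cultures with a high 18S control neither was called (adjusted p = 0.0705 and 0.238).

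**Figure D4:**
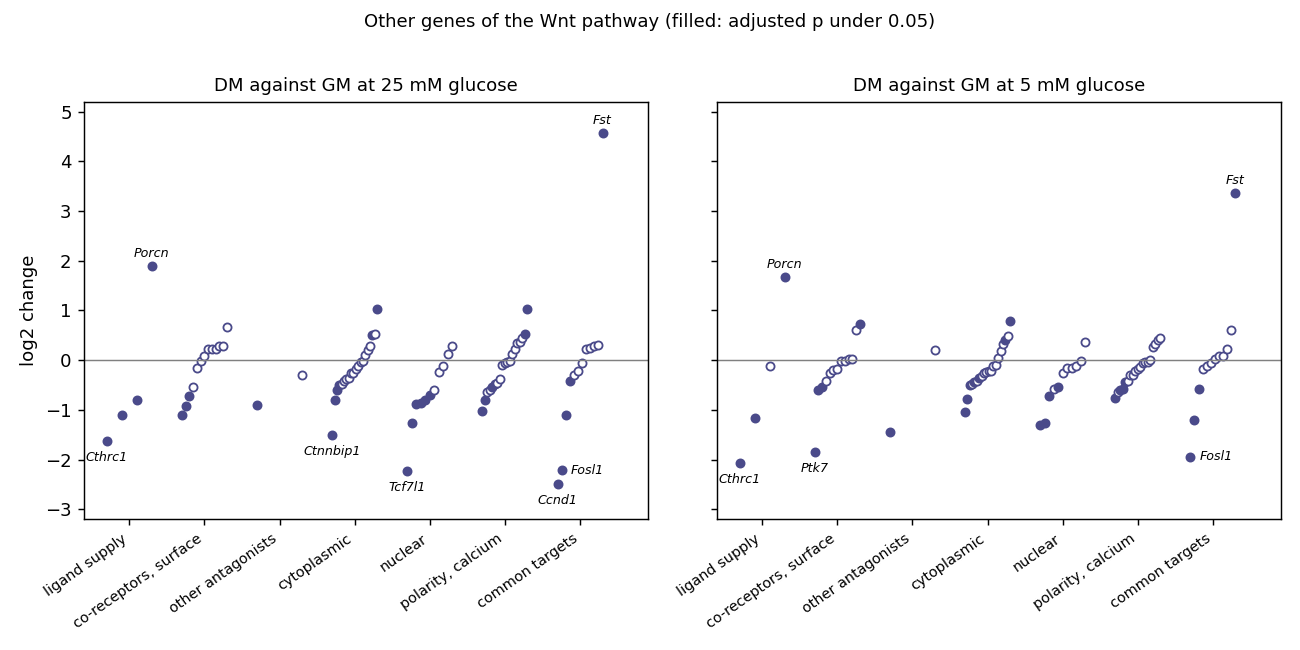
Log2 change from GM to DM for the tested genes of each role of the Wnt pathway list at 25 mM and 5 mM glucose, on the log2(intensity + 20) scale. Porcn lies at 1.90 and 1.68 and Fst at 4.57 and 3.37, and none of the 11 tested nuclear factors was called higher.

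The counts by role rest on few genes, beside 12.7% of all genes tested called higher and 16.7% lower at 25 mM and 9.95% and 14.2% at 5 mM, and nothing is read from them about a role. Among 13 tested co-receptors and other surface proteins, 0 were called higher and 3 lower at 25 mM, and 1 higher and 3 lower at 5 mM. The co-receptors Lrp5 and Lrp6 were not called, with changes between -0.21 and 0.23. Ptk7, a surface protein of the polarity branch, fell by 1.10 and 1.85, to DM means of 18.3 and 15.2 that lie below the filter intensity, and its call at 25 mM was lost without GM replicate 1 (-0.90, adjusted p = 0.0523) or DM replicate 1 (-0.84, adjusted p = 0.0535). Of 20 tested cytoplasmic genes 2 were called higher and 4 lower at 25 mM, and 2 and 5 at 5 mM. Ctnnbip1, which keeps beta-catenin from Tcf factors, fell by 1.51 and 1.05, while the beta-catenin gene Ctnnb1 itself was not called (-0.27 and -0.22). Of 11 tested nuclear factors 6 were called lower at 25 mM and 4 at 5 mM, with none higher. Tcf7l1, a Tcf factor that mostly represses, fell from 317 ± 78.4 to 56.2 ± 32.3 at 25 mM and from 283 ± 22.7 to 103 ± 21.9 at 5 mM (SD, n = 3), by 2.22 and 1.32 on the log2 scale. Tle2, a co-repressor, fell by 1.27 and 1.26, and the fall at 5 mM had an adjusted p of 0.0587 in the cultures with a high 18S control. Of 19 tested genes of the polarity and calcium branch 2 were called higher and 4 lower at 25 mM, and 0 and 4 at 5 mM, and of 2 other secreted antagonists 1 was called lower at both.

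Of the 12 tested genes often listed as targets of beta-catenin, 1 was called higher and 4 lower at 25 mM, and 1 and 3 at 5 mM, where 29.4% and 24.2% of all genes tested were called. Axin2, the target most often read as a gauge of the pathway, had changes of -0.22 and 0.22 (SE 0.22) and was not called. Fst, which encodes follistatin, an antagonist of myostatin, rose by 4.57 and 3.37, from 35.8 ± 30.4 to 1172 ± 97.8 at 25 mM and from 12.1 ± 0.801 to 313 ± 16.2 at 5 mM (SD, n = 3). Its GM mean lies near the filter intensity at 25 mM and below it at 5 mM, so Fst passed through its DM levels. These sizes depend on the pseudocount and ran from 3.67 to 5.44 and from 2.31 to 4.58 over the alternatives. Ccnd1, the cyclin D1 gene of cell cycle entry, fell by 2.49 and 1.20, from 736 ± 124 to 116 ± 30.4 and from 614 ± 105 to 256 ± 49.0 (SD, n = 3). Fosl1, an AP-1 factor, fell by 2.21 and 1.95, to DM means of 19.97 and 29.0 that lie below the filter intensity. Fst and Ccnd1 were also the 2 genes of the list called between glucose levels in DM, Fst at -1.84 (SE 0.29, limma adjusted p = 0.00344) and Ccnd1 at 1.03 (SE 0.19, limma adjusted p = 0.0121). The Ccnd1 glucose call was lost without DM at 5 mM replicate 3 (0.90, adjusted p = 0.0707). In GM 0 of the 78 genes were called between glucose levels by limma, with 7 at an unadjusted p under 0.05. The interaction was called for 0, with 9 at an unadjusted p under 0.05. Over all 12135 genes tested, 1157 had an unadjusted p under 0.05 for glucose in GM and 1349 for the interaction. All these genes respond to other signals too, and the list was chosen with earlier results of these data known.

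The 5 genes on MA whose log2 intensities followed Fzd2 most closely over the 12 cultures were Trappc2l (Pearson r 0.984), Cluh (0.976), Ndufab1 (0.973), Flcn (0.972) and Uso1 (0.969), from 8116 genes searched. Each was higher in DM than in GM in the group means at both glucose levels. Trappc2l, for example, averaged 264 and 314 in GM and 483 and 431 in DM at 25 and 5 mM. The 12 points share arrays and media, so the correlations are a description.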

How the data were processed

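The authors deposited 1 table of linear probe set intensities for each of 2 array designs, MA and MB, with 12 arrays each. How those intensities were made is not given in the sources used here. They were kept as deposited. Probe sets were named through the platform annotation: 35041 named 1 gene, 936 several and 9160 none.

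After 64 control probe sets were removed from each design, log2(intensity + 20) was fitted for each design apart (limma 3.58.1, statmod 1.5.0, R 4.3.3). The model had 4 group means over 12 arrays and eBayes with a trend (8 residual degrees of freedom, and 6.17 prior on MA and 10.4 on MB). Tests were two-sided, over 13575 probe sets on MA and 13506 on MB. The number of arrays limits the precision. The procedure was tested on simulated data.

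Values by culture are given for members called in at least 1 of 5 contrasts and for tested members with a mean above 100 called in none. Of other pathway genes, those called at both glucose levels with a log2 change of at least 1 in size are named. Exceptions are stated. The members and lists were chosen with earlier results of these data known. Replicate numbers were not treated as pairs. Same-numbered cultures' deviations from their group means correlated at -0.561 to 0.521 on MA and -0.217 to 0.24 on MB. Differently numbered cultures gave -0.58 to 0.719 and -0.286 to 0.242. The 18S class differs among same-numbered cultures, so these values cannot decide whether the numbers mark pairs. Alternatives varied the pseudocount, filter, scaling, trend, blocks, probe set choice and cultures.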

Additional observations from a re-analysis of the deposited data

How the results depend on the processing

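Over the alternatives, 41 called changes of the named genes gave 891 values, of which 61 lost the call and 0 changed sign. Another 74 changes that were not called gave 1604 values, of which 15 gained a call and 58 changed sign without one. With no filter Fzd9, at both glucose levels, and Wnt2, at 5 mM, were also counted as called. Both were named after their values were seen, so these calls are not read as tests of them. A filter at the 60th percentile left 2 members called at 25 mM and 2 at 5 mM. With the probe set at the higher percentile of either design, 8 members were called at 5 mM, and the other pathway genes had 1 glucose call in DM. With the 18S class as a block 1 member, Wnt10a, was called between glucose levels in DM, and 1 other pathway gene in the interaction. In only the cultures with a high 18S control, 1 member and 13 other pathway genes were called at 5 mM, where GM held 1 culture that was assumed to vary like the other groups. A pseudocount of 1 left 1 glucose call in DM among the other pathway genes, a pseudocount of 64 gave 1 interaction call there, and the 60th percentile gave 1.

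Without the eBayes trend, Wnt10a and, on MB, Sfrp1 lost their calls at 25 mM (adjusted p = 0.0505 and 0.08), and Fzd1, Fzd4 and Fzd5 on MB theirs at 5 mM (0.0863, 0.0698 and 0.0665). Median centring ended the calls of Fzd5 (0.0696) at 5 mM and Sfrp1 (0.0801) at 25 mM on MB, and of Fzd1 on MA (0.0512), and quantile normalization those of Wnt10a (0.0508) and of Fzd1 on MA (0.0552). Fzd1 on MA was also lost at a pseudocount of 1 (0.0696), with no filter (0.0797) and with the 18S class as a block (0.0539). A pseudocount of 1 moved Ptk7 to -1.94 and -2.78 and ended the glucose call of Fst (0.0978), and a pseudocount of 64 moved Ptk7 to -0.59 and -1.10, Fosl1 at 25 mM to -1.44 and Tle2 at 5 mM to -0.84.

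Leaving out each culture in turn gave 4 to 7 members called at 25 mM, 4 to 5 at 5 mM, 0 for glucose in either medium and 0 to 1 for the interaction. For the other pathway genes the ranges were 24 to 32, 18 to 28, 0 in GM, 1 to 2 in DM and 0 to 1. The causes were not tested. The replicate number as a block gave 6 members called at 25 mM and 4 at 5 mM, where Fzd1 on MA was lost (adjusted p = 0.0705), and it changed no other call of a named gene. The cultures of 3 of 18 same-numbered pairs on MA and 2 of 18 on MB correlated over 0.1. Among differently numbered pairs 10 of 36 on MA and 6 of 36 on MB did.

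Median centring moved the median change over all genes from -0.11 to 0.07 at 25 mM, from -0.01 to 0.12 for glucose in GM and from 0.02 to -0.14 for the interaction. Signal over background limits the 24 members whose preferred probe sets were below the filter, some of which were tested on MB.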
